A study of Mus musculus with 219 samples.

Results

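The cortical polarity genes described here were 10 genes of the apical and basolateral polarity machinery, taken by their symbols from the 32285 genes of the count tables: Pard3, Pard6a, Pard6b, Pard6g, Prkci, Prkcz, Cdc42, Rhoa, Ezr and Mark2. All 10 were present in the tables of both stages. The study placed a single sperm head by intracytoplasmic sperm injection (ICSI) at a chosen place of the mouse oocyte, opposite the meiotic spindle (contralateral ICSI, vegetal pole), next to it (ipsilateral ICSI, animal pole) or midway between the poles (equatorial ICSI), and asked whether the site of fertilization is reflected in gene expression of the sister blastomeres and of the blastocysts formed later. Each blastomere, and each blastocyst as a whole, gave 1 SMART-Seq library. After filters on detected genes and complete pairs, 55 pairs of monozygotic blastomeres (21 contralateral, 21 ipsilateral and 13 equatorial), 19 pairs of twin blastocysts (6, 7 and 6) and 31 intact blastocysts (11, 8 and 12) remained.

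All groups had the same parents, B6C3F1 oocytes and CD1 sperm, so each embryo was a B6C3F1 by CD1 cross and all groups carry the same genotype label, with no genotyping of single embryos. 2-cell embryos had been cultured together in KSOM with amino acids and were bisected at the 2-cell stage. Twin blastocysts each grew from 1 of the separated blastomeres, cultured alone, whereas intact blastocysts grew from embryos that were never bisected. A blastocyst library is a bulk sample of trophectoderm and inner cell mass, so fewer cells of a type and less RNA per cell cannot be told apart in it. The sister letters a and b carried no stated order, and the embryo was taken as the replicate with the counts of both sisters added. Nothing in the labels says from which females or injection sessions the embryos of a group came.

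In many animal cells the Par complex, in which the scaffold Par3 and the adaptor Par6 bind an atypical protein kinase C, occupies 1 face of the cortex, is recruited and activated by the small GTPase Cdc42 and pushes the kinase Mark2 (Par1b) to the opposite face. Ezrin connects this asymmetry to the actin cortex. In the mouse embryo the apical domain with Par proteins and ezrin appears when the blastomeres polarize and compact and is known for its part in setting trophectoderm apart from inner cell mass. In the metaphase II oocyte, Par proteins and Cdc42 are known from the cortex over the meiotic spindle.

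In genome build GRCm38, Pard3 (ENSMUSG00000025812) lay on chromosome 8 from 127063893 to 127612286, Pard6a (ENSMUSG00000005699) on chromosome 8 from 105701148 to 105703496 and Pard6b (ENSMUSG00000044641) on chromosome 2 from 168081004 to 168101203, and Pard6g is ENSMUSG00000056214. The kinase genes Prkci (ENSMUSG00000037643) and Prkcz (ENSMUSG00000029053) lay on chromosome 3 from 30995747 to 31052959 and on chromosome 4 from 155260129 to 155361361. Cdc42 (ENSMUSG00000006699) was on chromosome 4 from 137319696 to 137357720 and Rhoa (ENSMUSG00000007815) on chromosome 9 from 108306129 to 108337934. Ezr (ENSMUSG00000052397) was on chromosome 17 from 6738041 to 6782784 and Mark2 (ENSMUSG00000024969) on chromosome 19 from 7275396 to 7341860. Reads were counted over exons without strand. Exons of Rhoa share 324 bases with the antisense gene Gm37401 and 32 bases with Tcta, and those of Ezr share 4 bases with Sytl3, so their reads there cannot be told apart.

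Of these genes, 4 carried the differences described next: Pard3, Mark2 and Cdc42 differed between ICSI sites, and Ezr rose the most between stages. Their sequences before the annotated gene start are shown, to let the start regions be compared, from RefSeq promoters of GRCm38.p6, 5′ to 3′ on the strand of the gene. Capitals mark the motifs searched on both strands, which were TATAAA (the core promoter box), CCAAT (bound by factors of the NF-Y type), GGGCGG (known from Sp1), GGAATG (known from TEAD factors) and GCCNNNGGC (known from AP-2 factors), with no motif overlapping another in the bases shown.
Pard3, chr8:127063806-127063892, plus strand: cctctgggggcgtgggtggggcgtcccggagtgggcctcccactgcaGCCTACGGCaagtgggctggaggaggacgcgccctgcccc
Mark2, chr19:7341861-7342110, minus strand: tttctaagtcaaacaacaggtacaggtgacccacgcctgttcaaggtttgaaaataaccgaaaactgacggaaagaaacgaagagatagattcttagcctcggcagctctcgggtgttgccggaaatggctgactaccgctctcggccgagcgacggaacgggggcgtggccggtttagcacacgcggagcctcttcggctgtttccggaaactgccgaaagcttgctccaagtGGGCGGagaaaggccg
Cdc42, chr4:137357760-137358009, minus strand: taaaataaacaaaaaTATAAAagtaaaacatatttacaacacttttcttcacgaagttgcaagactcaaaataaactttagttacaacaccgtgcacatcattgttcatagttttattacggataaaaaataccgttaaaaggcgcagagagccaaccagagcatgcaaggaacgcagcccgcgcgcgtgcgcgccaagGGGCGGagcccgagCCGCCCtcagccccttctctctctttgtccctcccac
Ezr, chr17:6782785-6783030, minus strand: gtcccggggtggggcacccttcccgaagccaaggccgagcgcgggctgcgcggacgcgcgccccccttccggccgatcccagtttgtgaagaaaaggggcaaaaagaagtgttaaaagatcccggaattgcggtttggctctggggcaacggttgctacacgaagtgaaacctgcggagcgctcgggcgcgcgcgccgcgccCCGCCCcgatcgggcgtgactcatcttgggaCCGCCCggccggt
The RefSeq table held a promoter for 9 of the 10 genes, all but Pard6g. It held 2 for Pard3, Pard6a, Rhoa and Mark2 and 3 for Prkcz, and only 1 per gene is described here. Over the 250 bases before the RefSeq start, Pard3 had a GC content of 79.2% with 34 CpG, Ezr 67.2% with 32, Mark2 55.6% with 22 and Cdc42 45.2% with 15, beside medians of 52.4% and 6 over 32851 promoters. Cdc42 was the only one of the 9 with TATAAA in these 250 bases, a motif that 12.4% of all promoters held. GGGCGG, held by 32.7% of all promoters, was found in 8 of the 9 and was absent from the Rhoa window. CCAAT, held by 33.8% of promoters, occurred 5 times in Prkcz and 3 times in Pard6b, GGAATG (12.6%) once in Prkci, and GCCNNNGGC (13.7%) in Pard3, Pard6b, Prkcz and Rhoa. The 250 bases of Pard3 reach 163 bases into the annotated gene, and only the bases before it are printed.

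Median total counts were 1340425 per blastomere library (n = 110, from 360474 to 2100561), 1093478 per single twin (n = 38, from 713410 to 2161062) and 705837 per intact blastocyst (n = 31, from 234099 to 1254428). Pard3, Pard6b, Prkci, Cdc42 and Rhoa were counted in every library. Pard6a was the sparsest, with a count in 61 of 110 blastomeres, 37 of 38 twins and 27 of 31 intact blastocysts. Ezr was counted in 97 of 110 blastomeres and Prkcz in all but 2, and Pard6g was missing in 5 twins and 7 intact blastocysts. A count of 0 allows up to 3 reads, or 2.24 CPM at the median depth of a blastomere and 4.25 CPM at that of an intact blastocyst. SMART-Seq has no molecular identifiers, so these limits cover counting error only. The stage labels were checked against marker genes. The 5 maternal oocyte markers summed to between 3053 and 4757 CPM (counts scaled by library size) in 2-cell embryos, and the 5 trophectoderm markers rose from between 6.23 and 154.9 CPM there to between 2706 and 3323 CPM in twins and between 2416 and 5175 CPM in intact blastocysts. The 4 epiblast markers did not part the stages, at 7.53 to 164.1 CPM in 2-cell embryos. They had 88.9 to 204.5 CPM in twins and 2.61 to 167.8 CPM in intact blastocysts. The 4 primitive endoderm markers had 24.7 to 107.9, 280.9 to 480.6 and 58.5 to 569 CPM in the same order. The 5 cumulus cell markers summed to at most 39.1 CPM in any 2-cell embryo and 1.88 CPM in any blastocyst.

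Levels per exonic length, as TPM (counts scaled by exonic length and library size), ordered the genes in the 2-cell embryo as follows. Cdc42 was the most abundant, with a median of 333 TPM (219.1 to 504.8), above the next gene in 55 of 55 embryos. Pard3 had 135 TPM, Pard6b 103 TPM and Mark2 94.9 TPM. Pard3 exceeded Pard6b in 42 of 55 embryos and Pard6b exceeded Mark2 in 35, so these 3 neighbours overlapped widely. Pard6g and Prkci, with medians of 58.02 and 57.9 TPM, could not be ordered, since Pard6g was the higher in 25 of 55 embryos. Rhoa had 31.96 TPM, Prkcz 20.4, Ezr 16.3 and Pard6a 11.9, and Prkcz was above Ezr in 25 of 55 embryos. Among the Par6 genes the 2-cell embryo thus held mostly Pard6b and Pard6g, and among the atypical kinases more Prkci than Prkcz.

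In the 2-cell embryo, Pard3 and Mark2 were lower after contralateral or ipsilateral ICSI than after equatorial ICSI, and Cdc42 was higher after contralateral than after equatorial ICSI. None of the 10 genes differed between contralateral and ipsilateral ICSI. The differences were of 1.21 to 1.42-fold. The other 7 genes did not pass the test in any comparison of sites.

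Pard3, the scaffold of the Par complex, had 420.2, 515.1 and 723.3 CPM (lowest, median and highest) in the 21 contralateral embryos, 361.9, 588.9 and 720.7 CPM in the 21 ipsilateral embryos and 543.3, 687.4 and 828 CPM in the 13 equatorial embryos. The means were 538.7 ± 98.7, 572.8 ± 98.3 and 703.5 ± 98.4 CPM (SD). The ranges overlapped, but 14 of 21 contralateral and 7 of 21 ipsilateral embryos lay below the lowest equatorial embryo, and 6 of 13 equatorial embryos lay above all contralateral ones. In edgeR's quasi-likelihood test with plate as a term, Pard3 was 1.31-fold lower after contralateral than after equatorial ICSI (log2 difference -0.39 ± 0.08 SE, adjusted p = 0.000532) and 1.21-fold lower after ipsilateral ICSI (-0.28 ± 0.08, adjusted p = 0.0312).

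Mark2, the kinase of the basolateral cortex, had 126.3, 204.9 and 382.8 CPM in contralateral, 151, 230.6 and 346.3 CPM in ipsilateral and 240.8, 290.7 and 392 CPM in equatorial embryos. Of the contralateral embryos, 19 of 21 lay below the lowest equatorial embryo, as did 12 of 21 ipsilateral ones. The means were 214.1 ± 54.2, 236.6 ± 51.1 and 303.4 ± 48.4 CPM (SD). The fitted level was 1.42-fold lower after contralateral ICSI (log2 difference -0.51 ± 0.11 SE, edgeR adjusted p = 0.000645) and 1.31-fold lower after ipsilateral ICSI (-0.39 ± 0.11, adjusted p = 0.0188) than after equatorial ICSI.

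Cdc42, the GTPase that binds Par6, went the other way. It had 233.8, 332.2 and 454.5 CPM in contralateral, 199.5, 292.2 and 496.2 CPM in ipsilateral and 193.1, 273.5 and 321 CPM in equatorial embryos. Of the contralateral embryos, 12 of 21 lay above the highest equatorial embryo. Cdc42 was 1.27-fold higher after contralateral than after equatorial ICSI (log2 difference 0.35 ± 0.10 SE, edgeR adjusted p = 0.0111). After ipsilateral ICSI the difference from equatorial was 0.19 ± 0.10 (adjusted p = 0.284), which did not pass.

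**Figure D1:**
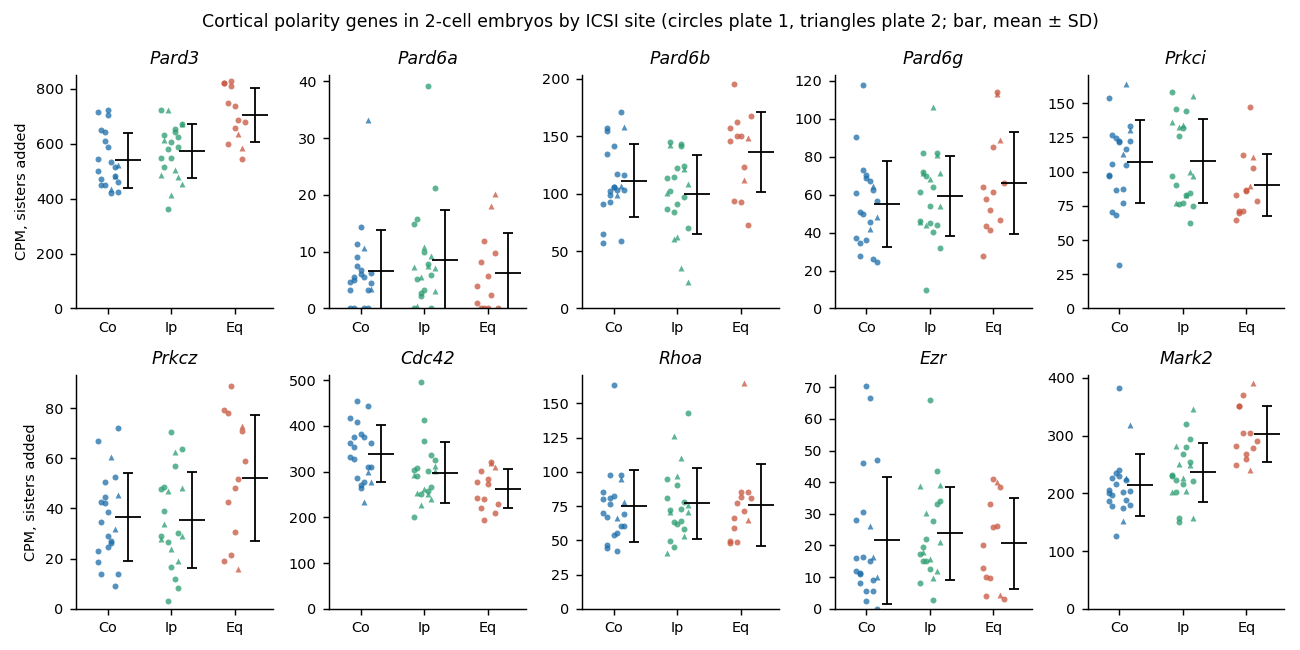
CPM of the 10 genes in 55 2-cell embryos (both sisters added) by ICSI site, contralateral (Co), ipsilateral (Ip) and equatorial (Eq), with 1 point per embryo and the mean ± SD beside them. Of the contralateral embryos, 14 of 21 for Pard3 and 19 of 21 for Mark2 lie below the lowest equatorial embryo, and 12 of 21 for Cdc42 lie above the highest.

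The comparison of contralateral with equatorial ICSI called 3 of the 10 genes, 1 higher and 2 lower, where 13.2% of the 13141 genes tested were called, 7.12% higher and 6.06% lower. That of ipsilateral with equatorial ICSI called 2 of 10, both lower, beside 6.65% of all genes, 3.43% higher and 3.22% lower. The median log2 difference of the 10 genes was -0.13 and -0.14, against -0.00 and 0.01 over all genes tested. The 2 comparisons share the equatorial embryos, so they are not independent of each other. Between contralateral and ipsilateral ICSI, edgeR called 0 of 10, with 0 at an unadjusted p under 0.05 and 0 by DESeq2, and 0% of all genes, with 555 genes at an unadjusted p under 0.05.

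Of the Par6 genes, Pard6b had 22.7, 102.6 and 144.7 CPM in ipsilateral embryos and 72.7, 148.3 and 195 CPM in equatorial ones, and all 21 ipsilateral embryos lay below the equatorial median. Its log2 difference was -0.44 ± 0.17 SE at an unadjusted p of 0.0143, which did not pass adjustment in edgeR over all genes (adjusted p = 0.122). Between contralateral and equatorial ICSI the difference of Pard6b was -0.29 (adjusted p = 0.283). Pard6g had medians of 50.9, 61.5 and 61.3 CPM after contralateral, ipsilateral and equatorial ICSI. Pard6a had means of 6.66, 8.50 and 6.24 CPM and was at 0 in 4, 2 and 4 embryos.

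The atypical kinases did not pass either. Prkcz had 9.09, 34.5 and 72.1 CPM in contralateral, 3.24, 30.01 and 70.4 CPM in ipsilateral and 15.7, 51.8 and 88.97 CPM in equatorial embryos, and 17 of 21 embryos of either polar group lay below the equatorial median. Its log2 differences from equatorial ICSI were -0.52 (edgeR adjusted p = 0.239) and -0.60 (adjusted p = 0.232, unadjusted 0.0422). Prkci had medians of 112.6, 96.8 and 85.6 CPM, and its differences from equatorial ICSI were 0.24 (adjusted p = 0.333) and 0.19 (adjusted p = 0.554). Rhoa, which drives cortical contractility, had medians of 69.9, 72.4 and 71.7 CPM and a contralateral to equatorial difference of -0.01 (adjusted p = 0.99). Ezr, the linker of membrane proteins to actin, had medians of 15.1, 19.5 and 20.003 CPM and differences of 0.05 and 0.21 (adjusted p = 0.965 and 0.863).

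Depth and plate moved with the sites. Each blastomere label also held a code of a letter and a number after its plate, and within a plate each letter held only 1 site. The labels do not say what the code stands for, and an effect of it cannot be told apart from one of the site. Added total counts had medians of 2675360 in contralateral, 3050510 in ipsilateral and 2179480 in equatorial embryos, and detected genes 12072.5, 12103 and 11392.5. With both as covariates the 3 contralateral calls remained, while Pard3 and Mark2 no longer passed for ipsilateral ICSI (-0.16, edgeR adjusted p = 0.51, and -0.33, adjusted p = 0.22). Over all 13141 genes, the covariates took the calls from 1733 to 1193 for contralateral ICSI. For ipsilateral ICSI they took them from 874 to 61. In the 48 pairs whose sisters both had at most 2% mitochondrial counts, Pard3 no longer passed for ipsilateral ICSI (-0.25, edgeR adjusted p = 0.075). Within plate 1, which held 18, 13 and 11 of the embryos, the same 3 and 2 genes passed, but in plate 2 Cdc42 was at 269.8 CPM in 3 contralateral and 313.7 CPM in 2 equatorial embryos, opposite to 350.6 and 253.6 CPM in plate 1, a difference that was not tested. Of the 5 maternal oocyte markers, Gdf9 was lower (-0.31, edgeR adjusted p = 0.0137) and Dppa3 higher (0.25, adjusted p = 0.0454) after contralateral than after equatorial ICSI, and none passed for ipsilateral ICSI. The summed oocyte markers ran from 3384 to 4757 CPM in contralateral, 3283 to 4575 CPM in ipsilateral and 3053 to 4404 CPM in equatorial embryos, with no marker at 0 throughout a site. The part of these differences in the results was not tested beyond the fits named.

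**Figure D2:**
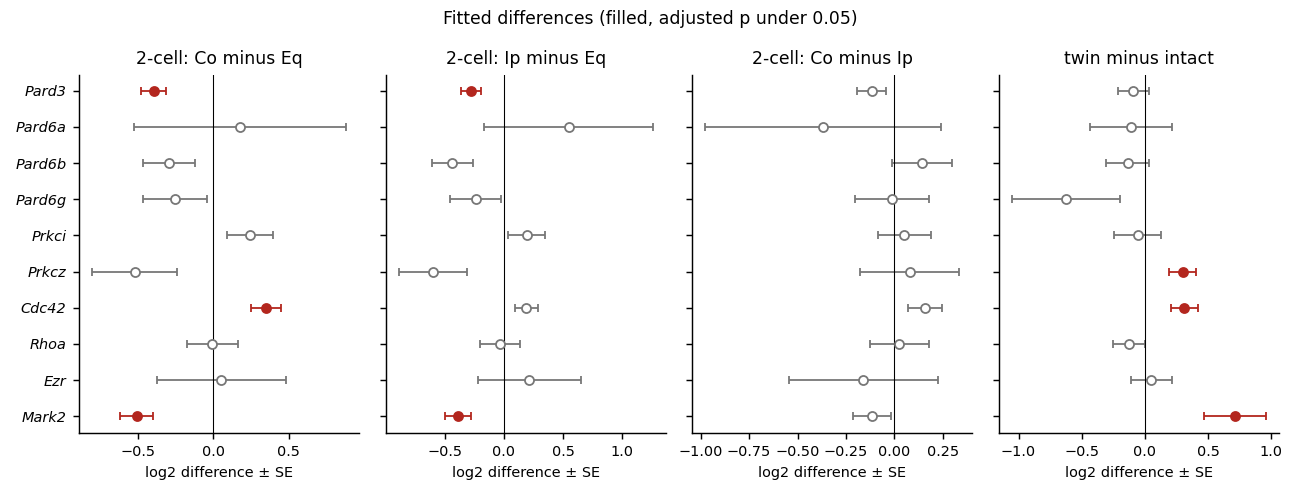
Log2 differences ± SE from edgeR for the 10 genes, between ICSI sites in 2-cell embryos and between twin and intact blastocysts. Filled points have an adjusted p under 0.05: Pard3, Cdc42 and Mark2 in the first panel, Pard3 and Mark2 in the second, none in the third, and Prkcz, Cdc42 and Mark2 in the fourth.

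Some other genes of the polarity machinery differed from equatorial ICSI as well. Of 73 tested genes from lists of the Crumbs and Scribble complexes, Par kinases and their adaptors, regulators and effectors of Cdc42 and related proteins, ezrin partners and cortical actomyosin, 21 passed after contralateral ICSI, 11 higher and 10 lower, beside the 13.2% of all genes called, and 13 after ipsilateral ICSI, 6 higher and 7 lower, beside 6.65%. Whether these lists differ from other genes was not tested. Of the single lists, a count is given here only for cortical actomyosin after contralateral ICSI. Of 18 cortical actomyosin genes tested, 5 passed after contralateral ICSI, all of them higher, where 7.12% of all genes were higher and 6.06% lower. They were led by Myl12a, a myosin regulatory light chain (0.75, edgeR adjusted p = 7.2e-05, and 0.59, adjusted p = 0.00287, after ipsilateral ICSI). Ywhaz, an adaptor of phosphorylated proteins, was higher in both comparisons (0.41 and 0.32, adjusted p = 0.000193 and 0.00655), as was Ywhaq of the same family after ipsilateral ICSI (0.40, adjusted p = 0.00873). Lin7c, a partner of the Crumbs complex, was higher after contralateral ICSI (0.66, adjusted p = 0.000199). Among the lower genes were Pak4, a kinase effector of Cdc42 (-0.63, adjusted p = 0.000198), Stk11, the kinase Lkb1 that activates Mark kinases (-0.61, adjusted p = 0.000819, and -0.58, adjusted p = 0.00494, after ipsilateral ICSI), and Mark4 (-1.08, adjusted p = 0.00225). After ipsilateral ICSI, Rock1, an effector kinase of RhoA (-0.36, adjusted p = 0.00949), and Tiam1, an exchange factor for Rac (-0.44, adjusted p = 0.0115), were lower too. All these list calls are from the fit without depth covariates. With them, 61 of all 13141 genes were called after ipsilateral ICSI, 60 higher and only 1 lower. Most of the lower ipsilateral calls thus depend on depth not being in the fit. Between contralateral and ipsilateral ICSI, 0 of 73 passed in edgeR and 4 had an unadjusted p under 0.05.

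Among the members, the median difference between sister blastomeres was smallest for the abundant genes. Absolute differences between sisters, on the scale of log2(CPM + 1), had a median of 0.21 for Pard3 (1.16-fold), 0.22 for Cdc42 (1.17-fold) and 0.27 for Mark2 (1.21-fold). They were 0.40 for Rhoa, 0.48 for Pard6b, 0.50 for Prkci, 0.70 for Pard6g and 0.82 for Prkcz, and the median over all genes tested was 0.87. The sparse genes differed most, Ezr by a median of 1.64 (3.11-fold) and Pard6a by 2.82 (7.08-fold). For each pair, an exact binomial test asked whether the split of reads exceeded counting error. It did at p under 0.05 in between 28 of 55 pairs (Rhoa) and 42 of 55 pairs (Pard6g), where over all genes and embryos 54.2% of pairs did. Pard3 and Mark2 sisters did in 32 of 55 pairs each and Cdc42 sisters in 29 of 55, close to that share. The median difference over all genes was not matched for read count. The test sees sampling of reads only, and any losses in lysis and amplification of single cells were not measured.

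Among the members, Pard3 varied the most between embryos relative to sisters. The intraclass correlation, the share of the variance of log2(CPM + 1) that lay between embryos rather than between sisters, was 0.43 for Pard3, 0.36 for Pard6b, 0.32 for Prkcz, 0.31 for Mark2, 0.29 for Cdc42 and 0.25 for Rhoa, beside a median of 0.13 over all genes. It was 0.16 for Ezr, 0.03 for Pard6g, 0.01 for Prkci and -0.25 for Pard6a. For Prkci and Pard6g, both counted in every blastomere, measured levels of sisters were thus hardly more alike than those of different embryos of the same site and plate. Their median counts per blastomere were 128.5 and 72, beside 786.5 for Pard3. The genes were not matched for read count, and the part of read sampling and amplification in these values was not tested. These values are a description over the same 55 pairs. The mean of each site and plate was removed first, so differences between sites and plates are not included.

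The size of the sister differences did not pass the test between sites for any of the 10 genes. Limma on the absolute differences called 0 of 10 between contralateral and equatorial ICSI (0.259% of 13141 genes, 1354 at an unadjusted p under 0.05), 0 of 10 between ipsilateral and equatorial (0.221%, 1545 genes) and 0 of 10 between contralateral and ipsilateral (0%, 632 genes). Prkcz came nearest by size, with a median sister difference of 1.55 in ipsilateral pairs (0.06 to 4.06) beside 0.63 in contralateral (0.01 to 2.54) and 0.62 in equatorial pairs (0.10 to 1.64). Ipsilateral sisters reached past the highest equatorial pair, and the ranges overlapped otherwise. Prkcz had few reads, and the only blastomeres at 0 were 1 sister a and 1 sister b after ipsilateral ICSI. Medians of sisters a and b were 35.6 and 28.7 CPM in ipsilateral, 34.3 and 33.2 CPM in contralateral and 43.8 and 55.04 CPM in equatorial pairs. The part of low counts in these Prkcz differences was not tested. The fitted difference of ipsilateral from equatorial pairs was 0.85 ± 0.35 SE (limma unadjusted p = 0.017, adjusted p = 0.285). Mark2 sisters differed more after contralateral than after equatorial ICSI by 0.24 (unadjusted p = 0.0136, limma adjusted p = 0.322), and Cdc42 sisters less after ipsilateral ICSI, at -0.23 (unadjusted p = 0.0128, adjusted p = 0.258). The letter of the sister, tested as b against a with the embryo as a block, called 0 of 10 in edgeR and 0% of 11712 genes (525 at an unadjusted p under 0.05), with Pard3 at -0.09 (unadjusted p = 0.0276).

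**Figure D3:**
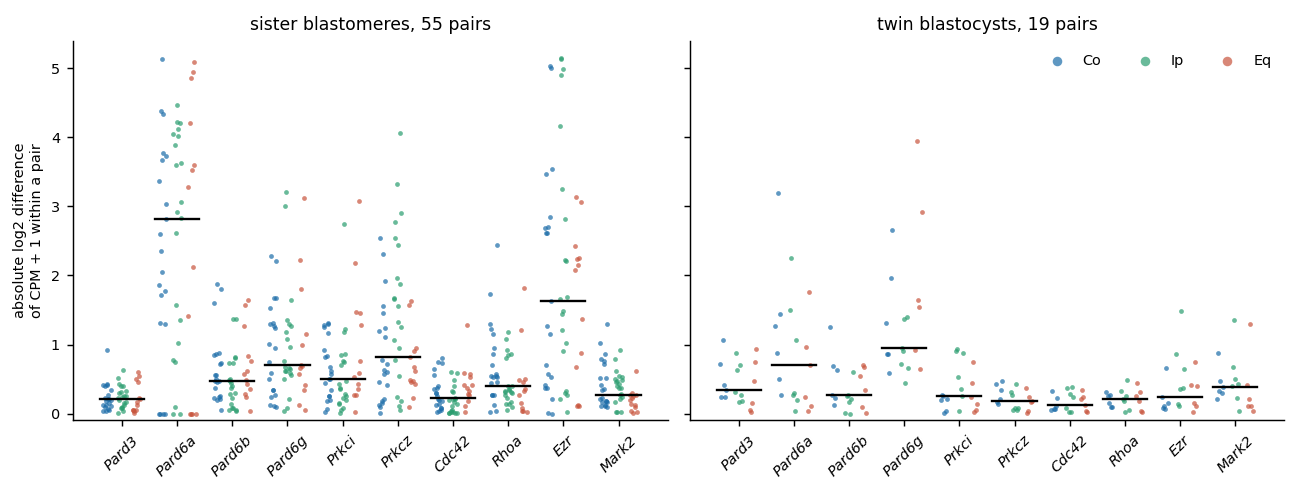
Absolute difference of log2(CPM + 1) within 55 pairs of sister blastomeres and 19 pairs of twin blastocysts, with 1 point per pair, coloured by ICSI site, and a line at the median over sites. Pard3 and Cdc42 sisters lie lowest, with medians of 0.21 and 0.22, and Pard6a highest at 2.82, while in twins Cdc42 is lowest at 0.12.

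From the 2-cell stage to the blastocyst, 9 of the 10 genes changed, in the same direction in twin and in intact blastocysts. Mark2, Pard6g, Pard3, Prkci and Pard6b fell, and Ezr, Prkcz, Rhoa and Cdc42 rose. Pard6a did not pass. Of all 14228 genes tested, 77.8% were called between intact blastocysts and 2-cell embryos (33.2% higher, 44.6% lower) and 77.1% between twin blastocysts and 2-cell embryos (33% higher, 44.1% lower), so that 9 of 10, 4 higher and 5 lower, is read against a background in which most genes changed. Both comparisons use the same 2-cell embryos. Plate 1 held no blastocysts. With plate as a term, the fitted stage differences thus set blastocysts against the 13 2-cell embryos of plate 2. The 42 of plate 1 add to the estimates of site and spread. The CPM given beside the folds are of all 55 2-cell embryos, so the folds need not match them. With composition factors, the median over all genes was itself -0.33 and -0.32 on the log2 scale, and with total counts only -0.05 and 0.03.

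Mark2 fell the most. It had 126.3, 230.7 and 392 CPM (lowest, median and highest) in 2-cell embryos, 15.7, 35.7 and 50.2 CPM in twins and 0, 20.03 and 40.8 CPM in intact blastocysts, with all 55 2-cell embryos above every blastocyst. The fold was 15.6 in intact blastocysts (log2 difference -3.96 ± 0.17 SE, edgeR adjusted p = 5.01e-43) and 9.48 in twins (-3.24 ± 0.18, adjusted p = 2.36e-32). Pard3 had 361.9, 588.9 and 828 CPM in 2-cell embryos, 139.4, 206.4 and 257 CPM in twins and 78.6, 191.8 and 384.5 CPM in intact blastocysts. All 55 2-cell embryos were above every twin and 54 above every intact blastocyst. Pard3 fell 3.30-fold in intact blastocysts (-1.72 ± 0.11, edgeR adjusted p = 5.61e-29) and 3.45-fold in twins (-1.78 ± 0.12, adjusted p = 7.32e-27).

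The Par6 genes parted. Pard6g had 9.71, 57.9 and 117.9 CPM in 2-cell embryos, 0.488, 10.2 and 23.9 CPM in twins and 0, 12 and 71.5 CPM in intact blastocysts, 7 of which were at 0. It fell 5.36-fold in intact blastocysts (log2 difference -2.42 ± 0.33 SE, edgeR adjusted p = 1.63e-10) and 8.27-fold in twins (-3.05 ± 0.38, adjusted p = 4.02e-12). Pard6b fell 1.42-fold (-0.51 ± 0.18, adjusted p = 0.00831) and 1.51-fold (-0.60 ± 0.19, adjusted p = 0.00392), from a median of 108.1 CPM to 88.1 CPM in intact blastocysts and 81.7 CPM in twins, with ranges that overlapped. Pard6a had medians of 5.61, 22.97 and 20.03 CPM in 2-cell embryos, twins and intact blastocysts, and with plate in the fit its differences of 0.77 ± 0.57 and 0.86 ± 0.54 did not pass (edgeR adjusted p = 0.212 and 0.139).

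The 2 atypical kinases moved in opposite directions. Prkcz had 3.24, 38.6 and 88.97 CPM in 2-cell embryos, 172.9, 254.6 and 328.1 CPM in twins and 88.3, 185.9 and 295.1 CPM in intact blastocysts. All 19 twins and 30 of 31 intact blastocysts lay above every 2-cell embryo. It rose 4.80-fold in twins (log2 difference 2.26 ± 0.25 SE, edgeR adjusted p = 1.05e-14) and 3.77-fold in intact blastocysts (1.91 ± 0.23, adjusted p = 1.92e-12). Prkci, with medians of 97.2, 87.3 and 89.3 CPM in 2-cell embryos, twins and intact blastocysts, fell 1.64-fold in twins (-0.71 ± 0.20, adjusted p = 0.000994) and 1.59-fold in intact blastocysts (-0.67 ± 0.19, adjusted p = 0.000725). Its ranges overlapped almost entirely. With total counts only, neither Prkci (-0.36, adjusted p = 0.096, and -0.38, adjusted p = 0.054) nor Pard6b (-0.24, adjusted p = 0.25, and -0.21, adjusted p = 0.27) passed in twins or intact blastocysts.

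Ezr, Rhoa and Cdc42 rose. Ezr had 0, 16.4 and 70.4 CPM in 2-cell embryos, 129.8, 172.3 and 252.2 CPM in twins and 14.8, 146.7 and 358 CPM in intact blastocysts, 26 of 31 of which lay above every 2-cell embryo, as did all twins. It rose 6.67-fold in twins (log2 difference 2.74 ± 0.37 SE, edgeR adjusted p = 1.38e-10) and 6.37-fold in intact blastocysts (2.67 ± 0.36, adjusted p = 1.01e-10). Rhoa rose from 41, 71.7 and 164.6 CPM to 198.3, 238.2 and 292.2 CPM in twins and 34.2, 261.5 and 356.6 CPM in intact blastocysts, by 2.19-fold (1.13 ± 0.17, adjusted p = 2.06e-09) and 2.34-fold (1.23 ± 0.16, adjusted p = 2.59e-11). Cdc42 had 193.1, 300.2 and 496.2 CPM in 2-cell embryos, 624.5, 757.3 and 902.9 CPM in twins and 184.3, 527.2 and 944.7 CPM in intact blastocysts. All twins, and 20 of 31 intact blastocysts, were above every 2-cell embryo. Cdc42 rose 2.16-fold in twins (1.11 ± 0.13, edgeR adjusted p = 3.46e-13) and 1.72-fold in intact blastocysts (0.78 ± 0.12, adjusted p = 1.08e-08).

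**Figure D4:**
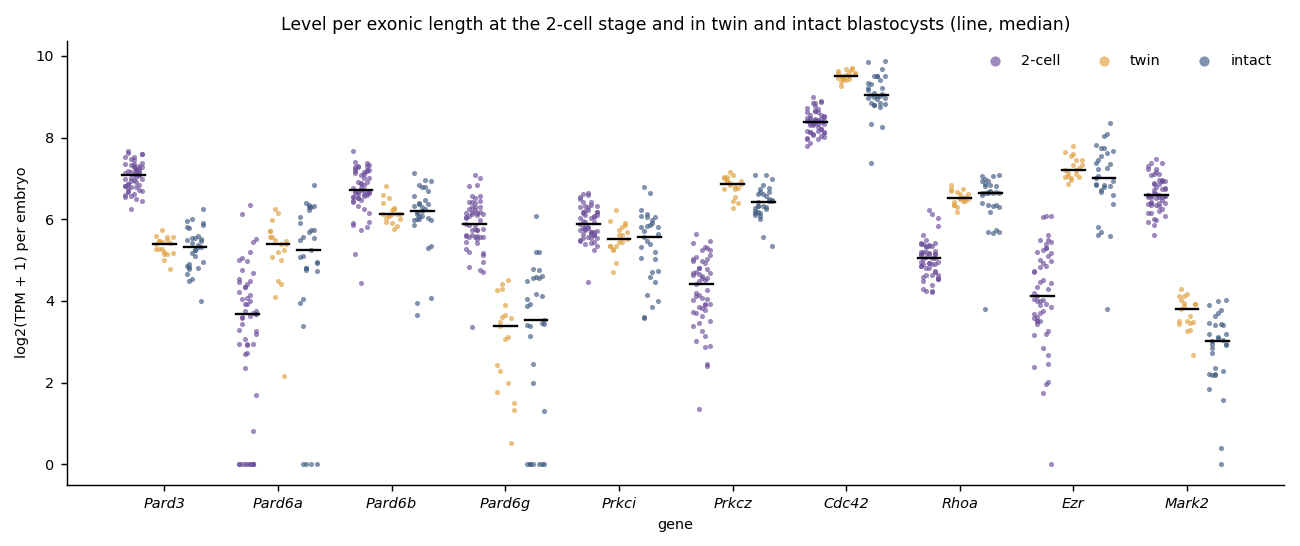
TPM of the 10 genes on the scale log2(TPM + 1), per embryo, in 55 2-cell embryos, 19 twin pairs and 31 intact blastocysts, with a line at the median. Mark2 falls from a median of 94.9 TPM to 12.9 and 7.09 TPM in twins and intact blastocysts, while Ezr goes from 16.3 to 148 and 128.1 TPM and Cdc42 stays highest at every stage.

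In TPM the order of the genes changed with the stage. Cdc42 remained first, with medians of 733 TPM in twins and 529 TPM in intact blastocysts, above the next gene in every embryo of both. Ezr moved from near the end to the place after Cdc42 (148 and 128.1 TPM), followed in twins by Prkcz (115.7 TPM), Rhoa (90.7 TPM) and Pard6b (68.9 TPM) and in intact blastocysts by Rhoa (99.2 TPM), Prkcz (84.1 TPM) and Pard6b (72.6 TPM). Prkci, Pard6a and Pard3 lay close together, between 41.1 and 44.8 TPM in twins and between 37.0 and 46.8 TPM in intact blastocysts, and Pard6a was above Pard3 in 10 of 19 twin pairs. Mark2 (12.9 and 7.09 TPM) and Pard6g (9.54 and 10.6 TPM) came last.

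Of the other polarity genes, 76 were tested between stages, of which 64 changed in intact blastocysts (35 higher, 29 lower) and 63 in twins (33 higher, 30 lower), beside the 77.8% and 77.1% of all genes called. Of 18 cortical actomyosin genes, 14 rose and 2 fell in intact blastocysts, where 33.2% of all genes rose and 44.6% fell. The cytoplasmic actins Actb (4.45 and 3.65 on the log2 scale in intact and twin blastocysts, edgeR adjusted p = 9.49e-46 and 4.24e-39) and Actg1 (3.82 and 3.94, adjusted p = 1.05e-38 and 8.31e-39) were among those with the smallest adjusted p, with Iqgap1, a scaffold that binds Cdc42, in intact blastocysts (5.25, adjusted p = 5.72e-39) and the adaptor Ywhab in twins (2.7, adjusted p = 3.70e-35). The lower genes were led by Mpp5 (Pals1), the Crumbs scaffold that binds Par6 (-2.55 and -3.07, adjusted p = 2.06e-42 and 1.19e-44), Rock1 (-2.22 and -3.11, adjusted p = 5.29e-41 and 1.58e-48) and Fmn2, the formin of oocyte spindle positioning (-6.82 and -7.55, adjusted p = 7.24e-41 and 1.40e-38). In the Crumbs list, the 5 genes called in intact blastocysts all fell, beside 44.6% of all genes called lower and 33.2% called higher. Genes of that list that were not called are left out of this count. Whether single lists differ from other genes was not tested, and counts of the remaining lists are not given here. Plate 2 alone, which held all blastocysts and 13 of the 2-cell embryos, gave the same 9 member calls in both comparisons.

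Between twin and intact blastocysts, Prkcz, Cdc42 and Mark2 were higher in twins, and the other 7 genes did not pass. Of the 10 genes, 3 were called, where 42.3% of 9379 genes were called (20.4% higher and 21.9% lower in twins), so the share of called members was below that of all genes. Prkcz was 1.23-fold higher (log2 difference 0.30 ± 0.11 SE, edgeR adjusted p = 0.021), with 18 of 19 twin pairs above the median of intact blastocysts. Cdc42 was 1.24-fold higher (0.31 ± 0.11, edgeR adjusted p = 0.0133), with all 19 twin pairs above that median. Its spread was narrower, 763.2 ± 68.4 CPM (SD) against 578 ± 175.7 CPM, but a twin pair adds 2 libraries and an intact blastocyst is 1. Single twins had an SD of 70.3 CPM (a) and 99.7 CPM (b) for Cdc42. Mark2 was 1.64-fold higher (0.71 ± 0.25, adjusted p = 0.0154), at 34.8 ± 9.48 against 19.9 ± 11.03 CPM, and 5 of 19 twin pairs lay above the highest intact blastocyst. Pard6g had the largest difference among the rest, -0.63 ± 0.43 (adjusted p = 0.244), and Ezr, Prkci, Pard3, Pard6a, Pard6b and Rhoa lay between -0.13 and 0.05.

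Depth differed with this comparison, since twins added up to a median total of 2200260 against 705837 for intact blastocysts. With the total count as a covariate 0 of the 10 genes passed, beside 1425 of 9379 genes, where 3967 were called without it. Prkcz was then at 0.31 (edgeR adjusted p = 0.31), Mark2 at 0.12 (adjusted p = 0.9) and Cdc42 turned to -0.15. With 1 twin of each pair, the one lettered a, all 3 passed, beside 3505 of 9288 genes. Lineage and oocyte markers moved as well, and their part was not tested. Of 14 tested, 8 were called, beside 42.3% of all genes. Cdx2, Gata6, Nanog, Sox2, Klf2 and the oocyte marker Dppa3 were higher and Gata3 and Elf5 lower in twins. Summed CPM of the markers lay between 2706 and 3323 in twins and between 2416 and 5175 in intact blastocysts for trophectoderm, 88.9 to 204.5 and 2.61 to 167.8 for epiblast, 280.9 to 480.6 and 58.5 to 569 for primitive endoderm, and 330.2 to 682.8 and 0 to 402.5 for oocyte genes, of which Oosp1 was at 0 in all intact blastocysts.

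Within each ICSI site, fitted together as 6 groups, no member passed in edgeR. Of all 10689 genes tested, 1906 were called within contralateral, 1452 within equatorial and 1160 within ipsilateral ICSI. Contralateral, equatorial and ipsilateral differences of twin from intact blastocysts were 0.24, 0.20 and 0.55 for Prkcz, 0.37, 0.19 and 0.46 for Cdc42 and 0.68, 0.71 and 0.83 for Mark2, all in the direction of the pooled result. The interaction of twin or intact with site called 0 of 10 in each of its 3 contrasts (0% of 10689 genes in each, with 290, 362 and 220 genes at an unadjusted p under 0.05). The interaction of Prkci between contralateral and ipsilateral ICSI was 1.01 ± 0.45 (unadjusted p = 0.0278, edgeR adjusted p = 0.9998). Of the other polarity genes, 35 of 71 were called between twin and intact blastocysts, 8 higher and 27 lower in twins, beside 20.4% of all genes higher and 21.9% lower. The higher ones were led by Crb3, a Crumbs protein (1.56, adjusted p = 1.26e-09), Myh10, a nonmuscle myosin (1.03, adjusted p = 5.94e-07) and Cdc42ep3 (1.11, adjusted p = 0.00321), the lower ones by Arhgef2, a guanine nucleotide exchange factor (-3.61, adjusted p = 9.18e-14), Rock1 (-0.94, adjusted p = 6.55e-11) and Myh9 (-1.14, adjusted p = 6.77e-11). These list calls are from the fit without the total count as a covariate. With it, calls over all genes went from 3967 to 1425 of 9379, and values of the list genes in that fit are not given here.

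Between ICSI sites, no member passed the test in twin or in intact blastocysts. In twins, edgeR called 0 of 10 between contralateral and equatorial, ipsilateral and equatorial, and contralateral and ipsilateral ICSI (0% of 10995 genes each time, 728, 426 and 754 at an unadjusted p under 0.05, and 9, 1 and 1 genes by DESeq2, none of them a member). Prkci had 48.6, 76.3 and 114.7 CPM in the 7 ipsilateral twin pairs and 70, 104.9 and 137.3 CPM in the 6 equatorial pairs, a difference of -0.46 ± 0.18 (unadjusted p = 0.0158, edgeR adjusted p = 0.9997), and the ranges overlapped. Pard3 and Mark2, which differed between sites at the 2-cell stage, had medians of 192.9, 213.2 and 201.1 CPM and of 30.1, 35.7 and 42.2 CPM in contralateral, ipsilateral and equatorial twins. Cdc42 had 765.9, 759.4 and 717.8 CPM. The contralateral to equatorial differences were -0.03 ± 0.13 for Pard3, -0.25 ± 0.26 for Mark2 and 0.13 ± 0.09 for Cdc42, with edgeR adjusted p of 0.978, 0.91 and 0.809. Whether the site differences of the 2-cell stage differ from those of blastocysts was not tested.

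**Figure D5:**
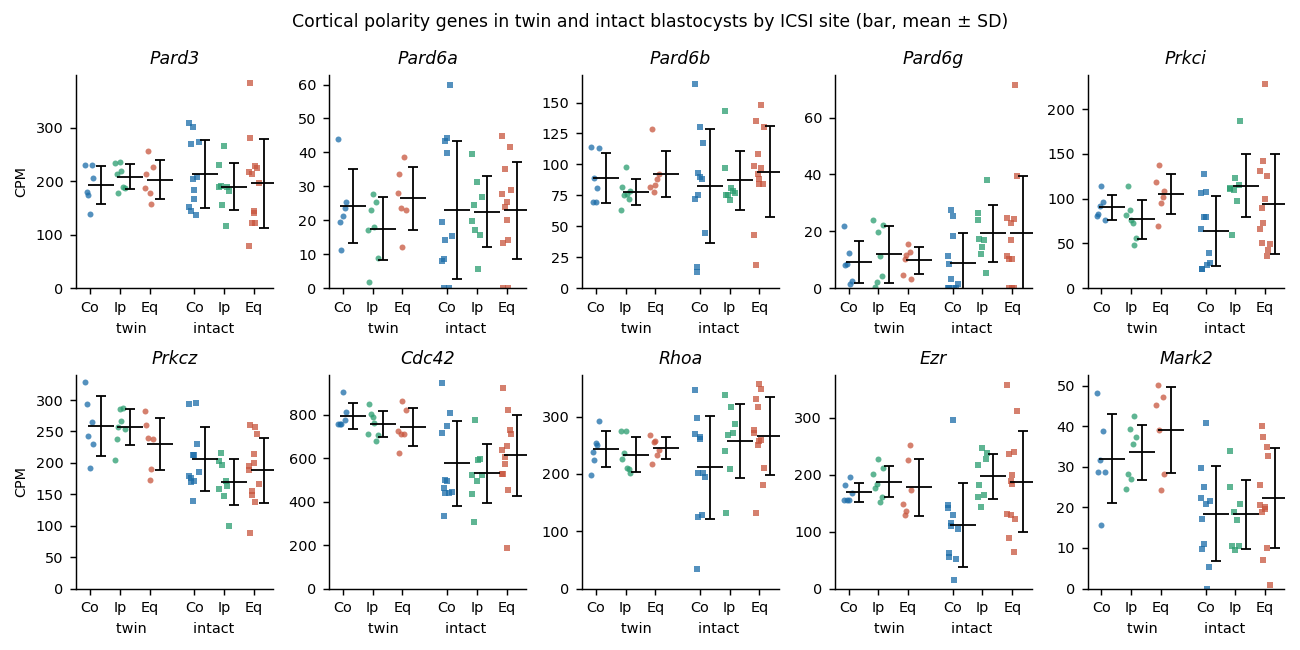
CPM of the 10 genes in 19 twin pairs (circles, both twins added) and 31 intact blastocysts (squares) by ICSI site, contralateral (Co), ipsilateral (Ip) and equatorial (Eq), with the mean ± SD beside the points. No gene passed between sites. For Ezr 9 of 11 contralateral and 5 of 12 equatorial intact blastocysts lie below the lowest ipsilateral one.

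In intact blastocysts edgeR also called 0 of 10 in each comparison of sites (0% of 9165 genes each time, with 629, 338 and 522 genes at an unadjusted p under 0.05 for contralateral with equatorial, ipsilateral with equatorial and contralateral with ipsilateral ICSI, and 1, 0 and 0 genes by DESeq2, none a member). Ezr had its lowest median in contralateral blastocysts. It had 14.8, 110.5 and 296.2 CPM in the 11 contralateral, 144, 199 and 246.5 CPM in the 8 ipsilateral and 63.6, 186.2 and 358 CPM in the 12 equatorial blastocysts. Of the contralateral ones 9 of 11 lay below the lowest ipsilateral one, but so did 5 of 12 equatorial ones. Only 4 of 11 contralateral ones lay below the lowest equatorial one. The log2 differences were -0.73 ± 0.28 from equatorial (unadjusted p = 0.0111, edgeR adjusted p = 0.639) and -0.74 ± 0.30 from ipsilateral ICSI (unadjusted p = 0.0185, adjusted p = 0.836). A 2-sided exact rank-sum test on TPM gave p = 0.00254 for contralateral against ipsilateral, without adjustment, 1 of 30 tests of this kind over members and pairs of sites in intact blastocysts. Prkci had 21.2, 66.3 and 127.9 CPM in contralateral and 59.3, 111.5 and 187.4 CPM in ipsilateral blastocysts (-0.74 ± 0.35, unadjusted p = 0.039, edgeR adjusted p = 0.838).

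Contralateral intact blastocysts also had the fewest detected genes, a median of 11003 against 12422.5 in ipsilateral and 12170.5 in equatorial ones, and the lowest primitive endoderm markers, summing to a median of 167.4 CPM against 292 and 324.3 CPM. Their epiblast markers were lowest as well, at 61.4 CPM against 91.8 and 84.2 CPM, and their trophectoderm markers highest, at 3419 CPM against 2580 and 2887 CPM. The part of these in the Ezr and Prkci values was not tested. Of the other polarity genes, 0 passed between sites in either kind of blastocyst in edgeR.

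Differences between twin blastocysts of a pair were smaller than those of the median gene for 8 of the 10 members. Absolute differences of log2(CPM + 1) between twins had a median of 0.12 for Cdc42, 0.18 for Prkcz, 0.22 for Rhoa, 0.24 for Ezr, 0.25 for Prkci, 0.26 for Pard6b, 0.34 for Pard3 and 0.39 for Mark2, beside 0.52 over all genes. Pard6a (0.71) and Pard6g (0.95), which had few reads, differed more than the median gene. The median over all genes was not matched for read count. The 8 members below it had median counts per twin from 38 (Mark2) to 848 (Cdc42). Between 3 of 19 pairs (Mark2) and 11 of 19 pairs (Pard3) exceeded counting error in the exact binomial test, where 41.8% of all gene and pair combinations did. Pard3 twins thus split past counting error in the most pairs among the members, followed by Cdc42 and Ezr with 9 of 19 each. The members were not matched for read count in this test. The intraclass correlation of twins, with site means removed, was -0.16 for Pard3, 0.0032 for Pard6b and 0.05 for Ezr. The median over all genes was 0.09. For these 3 genes measured levels of twins of a pair were thus hardly more alike than those of twins of different pairs of the same site. The part of read sampling and amplification in this was not tested. For the other 7 the intraclass correlation lay between 0.17 (Cdc42) and 0.55 (Prkcz). Across all 19 pairs the letter b against a called 0 of 10 genes and 0% of 9773 genes in edgeR (534 at an unadjusted p under 0.05), with Pard3 at -0.11 ± 0.11.

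The size of the twin differences did not pass between sites in limma for any member, with 0 of 10 and 0% of 10995 genes in each of the 3 comparisons (541, 487 and 603 genes at an unadjusted p under 0.05 for contralateral with equatorial, ipsilateral with equatorial and contralateral with ipsilateral ICSI). Prkci twins differed by 0.01, 0.21 and 0.27 (lowest, median and highest) in contralateral pairs and by 0.04, 0.53 and 0.94 in ipsilateral pairs, and 0 of 6 against 4 of 7 pairs exceeded counting error. The fitted difference was -0.39 ± 0.15 (unadjusted p = 0.0101, limma adjusted p = 0.9). Ezr twins, at medians of 0.13 and 0.38, gave -0.35 ± 0.17 (unadjusted p = 0.0401, adjusted p = 0.9).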

How the data were processed

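Single blastomeres and single blastocysts were converted to cDNA with the SMART-Seq kit and sequenced from Nextera XT libraries on a NovaSeq. The submitters' processing notes name Trimmomatic 039, FastQC 0.12.1 and STAR 2.7.10b with GRCm38. The authors deposited whole-number read counts per gene, not normalized and counted without strand over GENCODE M23. Plate 1 held 2-cell embryos read paired-end and cut to the first read, plate 2 the other 2-cell embryos and all blastocysts read single-end, so stage and plate overlap in part.

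The 10 genes and all lists were chosen with earlier results of these data known. The study's limits on detected genes (at least 9500 per blastomere, 4000 per blastocyst) and complete pairs were kept. Its mitochondrial limit was not applied, and a limit of 2% was run as an alternative (48 of the 55 pairs). 25 of the 219 samples had no column in the count tables and were not analysed here. Counts of sisters or twins were added per embryo and scaled by library size (CPM). TPM used union exon lengths of GENCODE M21, present for 32235 genes. The main test was edgeR's quasi-likelihood test (version 4.0.16, TMM, filterByExpr, robust), with plate as a term for 2-cell embryos, site for twin against intact blastocysts and both between stages, adjusted by Benjamini-Hochberg over all genes tested at 0.05. The study's own rank-sum test without adjustment was run as an alternative, by exact enumeration or 100000 permutations. Sister differences were tested with limma 3.58.1 on absolute differences of log2(CPM + 1). Alternatives were DESeq2 1.42.0, RLE or total-count scaling, no filter, no plate term, 1 plate alone, depth covariates, other sets of pairs, 1 twin of a pair, a pseudocount of 5 and no embryo block. Scripts were tested on simulated data. Named genes were the 10 members, at most 3 pathway genes per direction with the smallest adjusted p, and markers beside a result. P-values of comparisons between groups measure the spread between embryos of these groups, whose batches of females are not given in the sources used here. Those of the exact binomial test cover sampling of reads within a pair. Those of the sister letters, with the embryo as a block, cover the spread of differences within embryos. Promoters were those of RefSeq GRCm38.p6. Software was R 4.3.3 and, under Python 3.11.15, matplotlib 3.10.9, pandas 2.3.3, scipy 1.17.1 and numpy 2.4.6.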

Additional observations from a re-analysis of the deposited data

Results flagged for a closer look

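In the 40 groups of 6 to 8 embryos over the 10 genes, 2 held an embryo far from the others by Dixon's criterion, and chance alone marks about 1 in 20 groups. Both concerned Pard6b, a Par6 adaptor. In the 6 equatorial twin pairs the highest had 128.5 CPM, with the next at 92.2 and the lowest at 78.0 CPM. In the 8 ipsilateral intact blastocysts the highest had 143.1 CPM, with the next at 96.8 and the lowest at 70.9 CPM.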

How the results depend on the processing

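Over the alternatives, 1021 values of single members kept their direction and their side of the threshold, 41 changed sign without passing before or after, 17 passed that had not, 10 no longer passed and 1 that had passed reversed. With the unadjusted rank-sum test in place of edgeR or limma, the number of members called went from 3 to 5 between contralateral and equatorial ICSI at the 2-cell stage, from 2 to 4 between ipsilateral and equatorial, and for contralateral against ipsilateral from 0 to 1. In intact blastocysts it called 1 member (contralateral with equatorial) and 3 (contralateral with ipsilateral). For the size of sister differences it called 1 (contralateral with equatorial), 3 (ipsilateral with equatorial) and 1 (contralateral with ipsilateral), and for twin differences 1 between contralateral and ipsilateral ICSI, all without adjustment, which is part of the alternative's construction. The rank-sum test was run on the members only, so its share over all genes is not known. In edgeR, 3421, 2576 and 555 of 13141 genes had an unadjusted p under 0.05 at the 2-cell stage for contralateral with equatorial, ipsilateral with equatorial and contralateral with ipsilateral ICSI. Between ipsilateral and equatorial 2-cell embryos, 0 members passed with depth covariates, beside 61 of 13141 genes. In pairs under the mitochondrial limit of 2%, 1 member (Mark2) passed, beside 592 of 13022 genes, and Pard3 was at -0.25 (edgeR adjusted p = 0.075). Between twin and intact blastocysts, 0 members passed with the total count as a covariate, beside 1425 of 9379 genes, and Cdc42 reversed to -0.15. The cause was not tested. Between stages, without the plate term Pard6a also passed (1.37 in intact and 1.28 in twin blastocysts), and without the filter on low counts Pard6b no longer passed in twins (-0.39). At the median depth of intact blastocysts a count of 0 allows up to 4.25 CPM. No paired analysis was possible because sites, stages and twin or intact embryos are different embryos that share no replicate numbers, apart from sisters and twins, which were compared within embryos.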
